A study of Homo sapiens with 6 samples.

Results

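The genes described here are the matrix metalloproteinases (MMPs) and the tissue inhibitors of metalloproteinases (TIMPs) in DLD-1 colorectal adenocarcinoma cells. The set named 10 genes: TIMP1, TIMP2, TIMP3, MMP1, MMP2, MMP7, MMP13, MMP14, MMP15 and MMP24. They were looked up among the transcript clusters of the array, a transcript cluster being the array's unit of a gene, by the single gene symbol in the platform annotation. Such a cluster was found for 9 of the 10 genes, out of 22376 genes in all. Each of the 9 had a single cluster of this kind. TIMP2 shares its annotated cluster with CEP295NL, a gene that overlaps it in the RefSeq table, and no value is given for it.

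RNA came from 6 Affymetrix arrays in 2 groups of 3, labelled Δα-Cat and α-Cat. Both groups were subclones of DLD-1, an established human line, and both were kept untreated for 96 h inside a 3D gel of type I collagen at 1 mg/ml. The labels do not spell out the group names, do not say how α-Cat or Δα-Cat cells were made or how many clones a group holds, and do not say whether arrays came from separate cultures. The p-values thus reflect no more than array-to-array scatter within a group, part or all of which could be technical. The check of the labels was CTNNA1, the αE-catenin gene. It was lower in Δα-Cat, with a log2 difference of -1.23 (SE 0.06, limma adjusted p = 0.00212). Its log2 level averaged 6.495 in Δα-Cat and 7.73 in α-Cat, so the signal was 2.35-fold lower and above the mark of dim signal used below.

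MMPs are zinc-dependent endopeptidases that cut collagens and other proteins of the extracellular matrix, and they are made as inactive proenzymes. Some are secreted and some, such as MMP14, are held at the cell surface, where MMP14 can cut fibrillar collagen and activate the proenzyme of MMP2 with the help of TIMP2. TIMPs bind the active site of MMPs. TIMP3 stays bound to the matrix and also inhibits ADAM and ADAMTS proteases. In colorectal tumours, MMP7 is known as an epithelial product, while much of the MMP2 comes from stromal cells.

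The level of each gene is the deposited log2 value, and a difference is Δα-Cat minus α-Cat. A gene is called when its limma p is under 0.05 after Benjamini-Hochberg adjustment across the 65526 clusters in the fit. By that rule 0.342% of all clusters and 0.626% of all genes were called, with 0.371% of genes higher and 0.255% lower. Of the 9 genes, 2 were called: TIMP3 was higher and MMP14 was lower in Δα-Cat. The other 7 had differences between -0.09 and 0.03, and their 95% intervals all lay between -0.28 and 0.26, or between 0.823 and 1.20 as a ratio of Δα-Cat to α-Cat. The median difference of the 9 genes was -0.03, against -0.0005 over all genes.

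Promoter windows from RefSeq (GRCh38.p14), running from 250 bases before to 50 bases after each gene's start, were at hand for 6 of the 10 genes. They are shown for the 2 called genes, TIMP3 (chr22:32801455-32801754, plus strand) and MMP14 (chr14:22836335-22836634, plus strand), and for MMP7 (chr11:102530698-102530997, minus strand) as a secreted family gene of another promoter make-up. Capitals mark matches to any of 3 motifs, searched on both strands: the AP-1 motif TGANTCA, the GC box GGGCGG and the TATA box TATAAA.
TIMP3: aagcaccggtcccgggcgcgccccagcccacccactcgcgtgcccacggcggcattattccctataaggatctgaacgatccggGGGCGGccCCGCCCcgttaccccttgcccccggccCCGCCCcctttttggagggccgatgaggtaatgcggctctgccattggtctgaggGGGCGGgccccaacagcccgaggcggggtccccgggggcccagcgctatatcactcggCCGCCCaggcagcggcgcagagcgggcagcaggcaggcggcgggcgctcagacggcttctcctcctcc
MMP14: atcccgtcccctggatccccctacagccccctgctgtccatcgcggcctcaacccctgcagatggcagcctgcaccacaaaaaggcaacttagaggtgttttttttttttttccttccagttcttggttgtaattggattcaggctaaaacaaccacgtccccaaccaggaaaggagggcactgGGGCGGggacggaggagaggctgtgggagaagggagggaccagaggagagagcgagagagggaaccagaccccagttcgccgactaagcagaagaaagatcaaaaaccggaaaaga
MMP7: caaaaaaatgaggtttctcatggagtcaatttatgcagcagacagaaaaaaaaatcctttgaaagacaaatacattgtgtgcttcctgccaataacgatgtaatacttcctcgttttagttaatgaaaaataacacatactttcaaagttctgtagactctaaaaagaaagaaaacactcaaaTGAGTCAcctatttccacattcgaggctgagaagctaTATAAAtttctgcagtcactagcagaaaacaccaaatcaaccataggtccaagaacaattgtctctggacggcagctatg
The TIMP3 window held 5 GC boxes and the MMP14 window 1, and neither held the AP-1 or the TATA letters. No 2 matches overlapped in these windows, except that the AP-1 match of MMP7 reads on both strands. MMP7 had this AP-1 match at position -67 and the TATA letters at -30, with the start base counted as 0, and no GC box. Over all 35116 windows in the table, 7.71% held the AP-1 letters, 45.0% the GC box and 11.5% the TATA letters. G and C made up 72.7% of the TIMP3 window, 55.0% of the MMP14 window and 35.7% of the MMP7 window, against a median of 58.7% over all windows. CpG pairs numbered 31 in TIMP3, 10 in MMP14 and 4 in MMP7, with a median of 14. The windows of TIMP1, MMP15 and MMP24 held 2, 5 and 3 GC boxes and none of the other letters. These matches describe the letters only.

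TIMP3 had log2 levels of 9.14, 9.06 and 9.08 in the Δα-Cat arrays, against 7.87, 7.76 and 8.08 in the α-Cat arrays. The lowest Δα-Cat array was well above the highest α-Cat array, and the α-Cat arrays were the more scattered (SD 0.04 in Δα-Cat and 0.16 in α-Cat, n = 3 each). The mean was 9.09 in Δα-Cat and 7.90 in α-Cat, a difference of 1.19 (SE 0.09, adjusted p = 0.00575). That is a 2.28-fold higher level, with a 95% interval of 1.98 to 2.63. By p, TIMP3 stood at place 21 among the 22376 genes, and it was one of 41 genes that differed at least 2-fold. TIMP3 missed the threshold when α-Cat replicate 1 was left out (adjusted p = 0.0582, difference 1.17), and its call held without any of the other 5 arrays. TIMP3 overlaps SYN3, a synapsin gene, in the RefSeq table. SYN3, looked up because of this overlap and after the values of TIMP3 were known, averaged 4.91 in Δα-Cat and 4.95 in α-Cat and was not called (difference -0.05, SE 0.06, adjusted p = 0.894).

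TIMP1, a secreted inhibitor of most MMPs, was not called. Its levels were 7.87, 7.70 and 7.59 in Δα-Cat and 7.76, 7.87 and 7.53 in α-Cat, so the groups overlapped throughout. The difference was 0.0009 (SE 0.11, adjusted p = 0.999), with a 95% interval of -0.26 to 0.26. TIMP1 varied most within groups among the 9 genes (pooled SD 0.16, against a median of 0.07 for the 9 and for all genes alike). A change of up to 1.20-fold either way lies inside the interval. TIMP1 overlaps SYN1, which was looked up because of this overlap. SYN1 averaged 4.44 in Δα-Cat and 4.41 in α-Cat, below the mark of dim signal described further on in both groups.

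**Figure D1:**
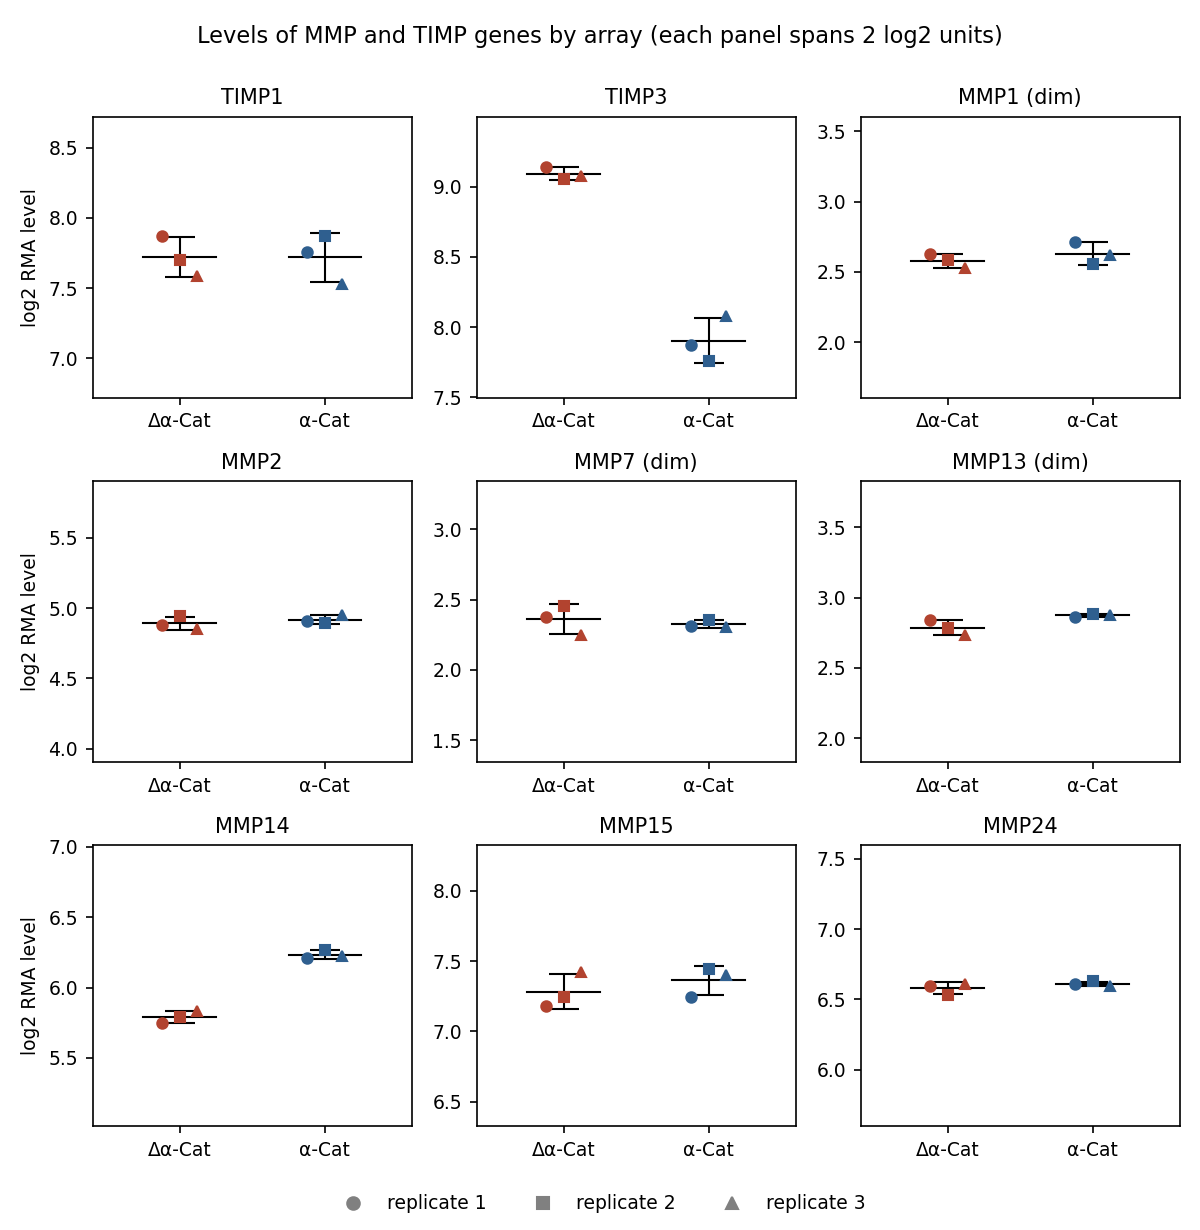
Log2 level (vertical axis, RMA) of the 9 genes in each array, with Δα-Cat on the left and α-Cat on the right of each panel. Points are single arrays, horizontal lines the means and bars 1 SD (n = 3), and every panel spans 2 log2 units. TIMP3 stood higher in all 3 Δα-Cat arrays and MMP14 lower, while MMP1, MMP7 and MMP13 were dim in both groups.

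MMP14, a membrane-bound collagenase, had log2 levels of 5.75, 5.79 and 5.83 in the Δα-Cat arrays. In the α-Cat arrays they were 6.21, 6.27 and 6.22. Every Δα-Cat array was below every α-Cat array, and the arrays within a group lay close together. The mean was 5.79 ± 0.04 in Δα-Cat and 6.23 ± 0.03 in α-Cat (SD, n = 3 each), a difference of -0.45 (SE 0.05, adjusted p = 0.0345). That is 1.36-fold lower in Δα-Cat, with a 95% interval of 1.25 to 1.48. Fitting the replicate number as a block gave 0.0784. The call was lost in all 6 fits that left out a single array (adjusted p 0.0887 to 0.169), in which the difference stayed between -0.47 and -0.42.

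The other membrane-bound MMPs in the set, MMP15 and MMP24, were not called. MMP15, which like MMP14 has a transmembrane anchor, had levels of 7.18, 7.25 and 7.42 in Δα-Cat and 7.25, 7.44 and 7.40 in α-Cat, with overlapping groups. Its difference was -0.08 (SE 0.08, adjusted p = 0.855), with an interval of -0.28 to 0.12. MMP24, best known from the nervous system, was the steadiest of the 9 genes, at 6.60, 6.53 and 6.61 in Δα-Cat and 6.61, 6.63 and 6.59 in α-Cat. Its difference was -0.03 (SE 0.05, adjusted p = 0.93), with an interval of -0.15 to 0.09. MMP24 overlaps MMP24OS and the readthrough gene MMP24-AS1-EDEM2 in the RefSeq table, and how the annotation divides their probes is not given in the sources used here. Of 6 membrane-bound MMPs that were looked up and had a value (MMP14, MMP15, MMP16, MMP17, MMP24 and MMP25), only MMP14 was called. Whether its change differs from theirs was not tested.

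Among the secreted enzymes, MMP2, a gelatinase, had levels of 4.88, 4.94 and 4.85 in Δα-Cat and 4.91, 4.89 and 4.95 in α-Cat. The difference was -0.03 (SE 0.05, adjusted p = 0.944), and the groups overlapped. Its level lay just above 4.58, the 95th percentile of 397 clusters of olfactory receptor genes, which served here as a mark of dim signal because colon cells are not known for their expression. MMP1 and MMP13, interstitial collagenases, and MMP7, matrilysin, all lay below that mark in both groups, so their expression was not shown to exceed background. MMP1 averaged 2.58 in Δα-Cat and 2.63 in α-Cat (difference -0.05, adjusted p = 0.882), and MMP7 averaged 2.36 in Δα-Cat and 2.33 in α-Cat (difference 0.03, adjusted p = 0.937).

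MMP13 averaged 2.79 in Δα-Cat and 2.87 in α-Cat. Its arrays read 2.84, 2.78 and 2.74 in Δα-Cat and 2.86, 2.89 and 2.87 in α-Cat, so the groups just failed to overlap, at a dim level. The difference of -0.09 (SE 0.05, adjusted p = 0.691) was not called. In all, the groups did not overlap for 3 of the 9 genes (TIMP3, MMP13 and MMP14), while this held for 21.3% of all genes. RefSeq places MMP1, MMP7 and MMP13 in an unbroken run of 9 MMP genes on chromosome 11, with MMP20, MMP27, MMP8, MMP10, MMP3 and MMP12. All 9 genes of the run were dim in both groups, and their differences ranged from -0.09 to 0.05, with 0 called by limma and 0 at an unadjusted p under 0.05.

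Over the family genes looked up, 25 had a cluster with a single gene symbol, 22 MMPs and 3 TIMPs. TIMP2 and MMP23B had no such cluster and are not counted. Of these, 12 lay above the dim mark in both groups and 13 below it in both. A level above the mark does not by itself show expression. The fibroblast marker COL1A1, for one, averaged 6.15 in Δα-Cat and 6.16 in α-Cat. TIMP3 and MMP14 were the only calls among the 25 family genes. Among 16 measured family genes outside the set, 0 were called by limma and 1 had an unadjusted p under 0.05. That gene was TIMP4, an inhibitor first known from heart tissue. TIMP4 read 7.67, 7.85 and 7.67 in Δα-Cat and 7.40, 7.60 and 7.44 in α-Cat. Its arrays did not overlap between groups, and the difference of 0.25 (SE 0.08) had an adjusted p of 0.357. MMP19, a secreted MMP, came next by p with a difference of -0.08 (adjusted p = 0.714), at a dim level.

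**Figure D2:**
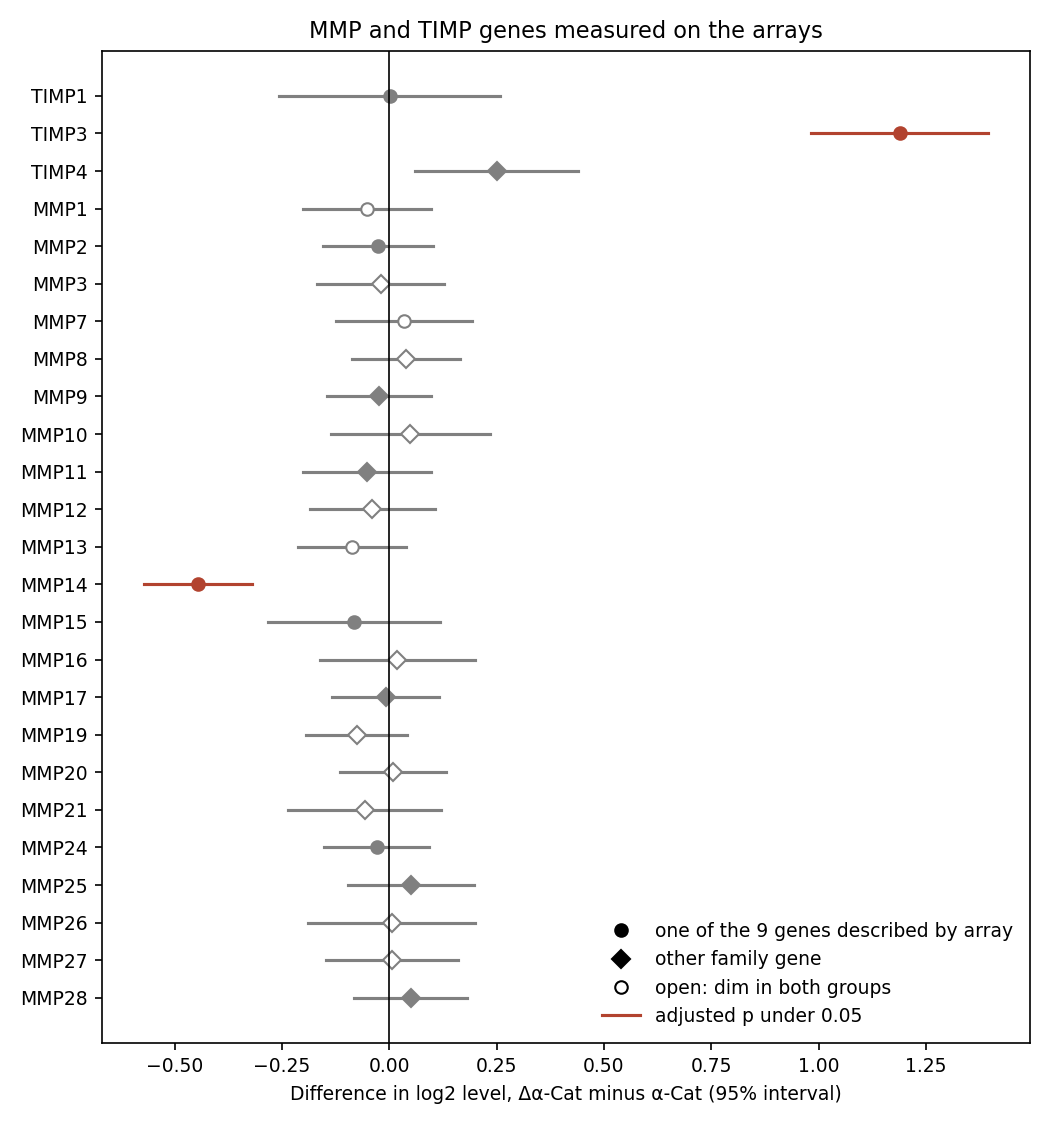
Difference in log2 level, Δα-Cat minus α-Cat, for the 25 measured MMP and TIMP genes, with 95% intervals from limma. Red marks the 2 called genes, and open symbols are dim in both groups; TIMP3 stands at 1.19 and MMP14 at -0.45, and every other difference lies between -0.09 and 0.25.

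TIMP3 and MMP14 ran opposite to each other over the 6 arrays (Pearson r = -0.989), a description in which the group difference itself weighs most. Genes were ranked by correlation after names of uncharacterised loci (LOC), LINC genes, microRNAs, small RNAs and open reading frames were left out. Among the rest, the 3 closest to TIMP3 were LCK (r = 0.998), CYP4F3 (r = 0.997) and A2M (r = 0.992). LCK is a tyrosine kinase best known from T cells, CYP4F3 a fatty acid hydroxylase and A2M the protease inhibitor α2-macroglobulin. LCK differed by 0.14 (adjusted p = 0.411) and was not called. CYP4F3 differed by 0.52 (adjusted p = 0.0442, or 0.0784 when blocked by replicate number). Among the same names, the 3 closest to MMP14 were FSCN1 (r = 0.999), SLC44A4 (r = 0.997) and QPRT (r = 0.996). FSCN1 encodes the actin bundler fascin, SLC44A4 a choline transporter-like protein and QPRT an enzyme of NAD synthesis. FSCN1 differed by -0.38 (adjusted p = 0.0484, or 0.102 under the block), SLC44A4 by -2.50 and QPRT by -1.18. CYP4F3 and FSCN1 lost their calls in all 6 fits without a single array. All correlations are over 6 arrays that share their normalization.

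The genes that activate, restrain or accompany MMPs were read from 6 further lists, which held 87 different measured genes. Of these, 2 were called higher and 1 lower, beside the 0.626% called over all genes. The lists were chosen with earlier results of these data known. No count from them can thus be read as an excess over the share of all genes. Among 15 measured genes of proenzyme activation and cell-surface control, 1 rose and 14 were not called. The gene that rose was A2M, whose product traps proteases of many classes. A2M read 4.73, 4.65 and 4.72 in Δα-Cat and 3.69, 3.63 and 3.70 in α-Cat. All Δα-Cat arrays stood about a full log2 unit above the α-Cat arrays, which lay below the dim mark. The difference was 1.03 (SE 0.05, adjusted p = 0.00212), and A2M was called in all 6 fits without a single array. The median difference of this list was 0.08. At an unadjusted limma p under 0.05, which 13.1% of all genes had, 3 of its genes were higher and 2 lower.

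The list of collagen breakdown and collagen receptors, which also took in other surface and matrix genes, held 18 measured genes. Of these, 1 rose, 1 fell and 16 were not called, with a median of 0.03. The integrin, DDR2, MRC2 and cathepsin genes of the list were not called. CD44, a hyaluronan receptor that can dock MMPs at the cell surface, read 8.45, 8.51 and 8.33 in Δα-Cat, against 7.85, 7.87 and 7.71 in α-Cat. Its groups did not overlap, and the difference was 0.62 (SE 0.07, adjusted p = 0.0332). A second, dim cluster of CD44 had a difference of 0.39 (adjusted p = 0.326). DPP4, a surface peptidase, read 4.25, 4.15 and 4.59 in Δα-Cat and 5.22, 5.25 and 5.40 in α-Cat, lower in every Δα-Cat array. Its difference was -0.96 (SE 0.12, adjusted p = 0.038), but the Δα-Cat mean of 4.33 lay below the dim mark, so expression there may be no more than background. Without a single array CD44 was called in 0 of 6 fits (adjusted p 0.0839 to 0.156) and DPP4 in 1 of 6 (adjusted p 0.0262 to 0.169).

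The remaining 3 lists held no call by limma. Of 14 ADAM and ADAMTS proteases, 3 had an unadjusted p under 0.05, which 13.1% of all genes had. ADAM17, the sheddase of TNF and a target of TIMP3, averaged 7.10 in Δα-Cat and 6.81 in α-Cat (difference 0.30, SE 0.07, adjusted p = 0.181). ADAM10, a related sheddase, averaged 7.92 in Δα-Cat and 7.72 in α-Cat (difference 0.20, adjusted p = 0.394). The list median was 0.004.

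Of 9 measured genes of plasminogen activation, 3 had an unadjusted p under 0.05, beside 13.1% of all genes, and the median was -0.04. SERPINB5, the serpin maspin, read 6.19, 6.57 and 6.69 in Δα-Cat and 5.80, 5.72 and 5.92 in α-Cat. Its difference was 0.67 (SE 0.13, adjusted p = 0.13), and the groups did not overlap. PLAUR, the urokinase receptor, averaged 6.82 in Δα-Cat and 7.12 in α-Cat (difference -0.30, SE 0.07, adjusted p = 0.209).

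AP-1 and ETS transcription factors are known to bind MMP promoters. Of 15 such genes, 9 had an unadjusted p under 0.05, beside 13.1% of all genes. Of these 9, 5 were higher and 4 lower, and the median of the list was 0.03. ETS2 averaged 10.19 in Δα-Cat and 9.81 in α-Cat (difference 0.38, SE 0.07, adjusted p = 0.115). ETS1 averaged 4.10 in Δα-Cat and 3.82 in α-Cat, dim in both, with a difference of 0.28 (adjusted p = 0.203). The other higher ones were JUNB (0.36), FOSL2 (0.25) and ELF3 (0.20). The 4 lower ones were ETV1 (-0.28), FOSL1 (-0.24), ETV4 (-0.23) and ETV5 (-0.19). JUNB, FOSL2, ELF3 and the 4 lower ones were named after their values were seen. The groups did not overlap for FOSL2 and the 4 lower ones, but did for JUNB and ELF3. All of them were picked by p in these same arrays. The Δα-Cat mean of ETV1, 4.40, lay below the dim mark. When clusters with a single gene symbol were the only ones tested, SERPINB5, ETS2 and CTSD were called as well (adjusted p = 0.0434, 0.0335 and 0.0495). CTSD encodes the lysosomal protease cathepsin D, differed by 0.38 and was named after its values were seen. That fit called 2.94% of all genes.

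**Figure D3:**
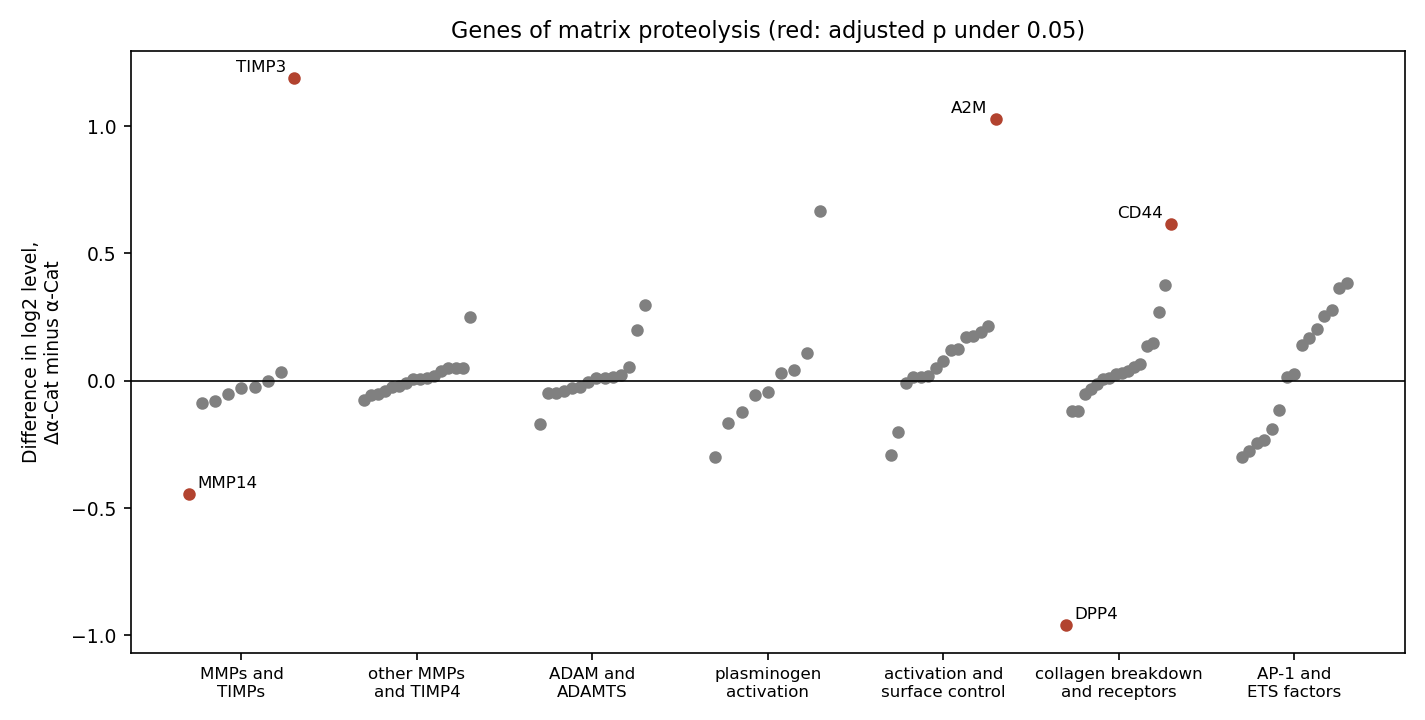
Difference in log2 level, Δα-Cat minus α-Cat, for the 9 MMP and TIMP genes and for the genes of the 6 further lists, each point a gene and each list ordered by difference. The called genes, in red and named, are TIMP3, A2M and CD44 above 0 and MMP14 and DPP4 below it.

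**Figure D4:**
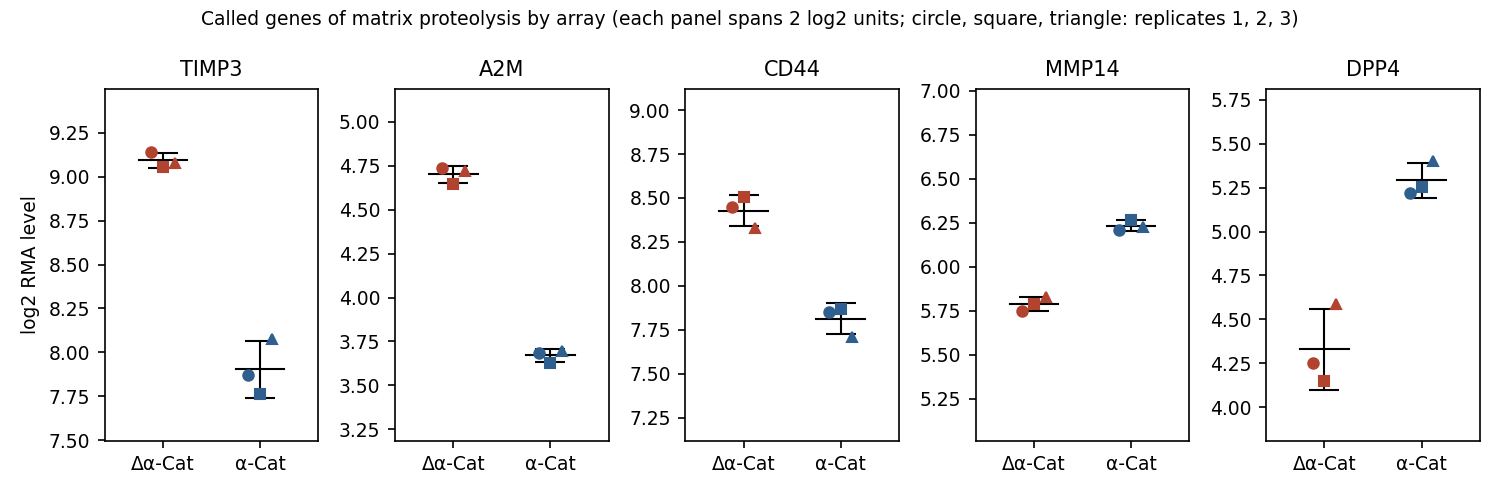
Log2 level by array of the 5 called genes, with Δα-Cat left of α-Cat, points for arrays, lines for means and bars for 1 SD (n = 3). TIMP3, A2M and CD44 are higher in Δα-Cat, MMP14 and DPP4 lower. The groups do not overlap in any panel, but the genes were picked by their calls in these same arrays.

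Markers of other cells were read in the same arrays, since fibroblasts and endothelial cells also make TIMP3 and MMP14. Of 9 measured fibroblast markers 0 were called, and 5 were dim in both groups, DCN and LUM among them. The other 4, COL1A1, COL1A2, PDGFRB and THY1, lay above the dim mark in both groups. The summed log2 levels of the 9 fibroblast markers ranged from 33.79 to 34.34 in Δα-Cat and from 33.86 to 33.93 in α-Cat. None of 7 endothelial markers (summed 30.0 to 30.9 in Δα-Cat and 30.7 to 31.1 in α-Cat) and none of 9 leukocyte markers (40.2 to 41.4 in Δα-Cat and 40.2 to 40.7 in α-Cat) was called, and the sums overlapped between groups. Above the dim mark in both groups lay 4 of the 7 endothelial and 6 of the 9 leukocyte markers. At an unadjusted p under 0.05 limma gave 0, 0 and 2 genes of the fibroblast, endothelial and leukocyte lists. The 2 were CD14 (difference -0.64, adjusted p = 0.12, and 0.0409 when only single-symbol clusters were tested) and CD68 (0.66, adjusted p = 0.507). All 8 epithelial markers lay above the dim mark in both groups, and 0 were called. At an unadjusted p under 0.05, which 13.1% of all genes had, 3 of the 8 were higher in Δα-Cat and 1 lower. The groups did not overlap for 5 of the 8, beside 21.3% of all genes. CDH1 (E-cadherin) differed by 0.26, KRT19 by 0.17 and KRT8, a keratin gene with near-identical pseudogene copies that make its value uncertain, by 0.23, while VIL1 (villin) differed by -0.14. Their summed log2 levels ranged from 76.4 to 77.2 in Δα-Cat and from 76.2 to 76.9 in α-Cat. Their part in the results for TIMP3 and MMP14 was not tested. In RNA from a whole culture, fewer cells of a kind and less RNA per cell cannot be told apart.

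**Figure D5:**
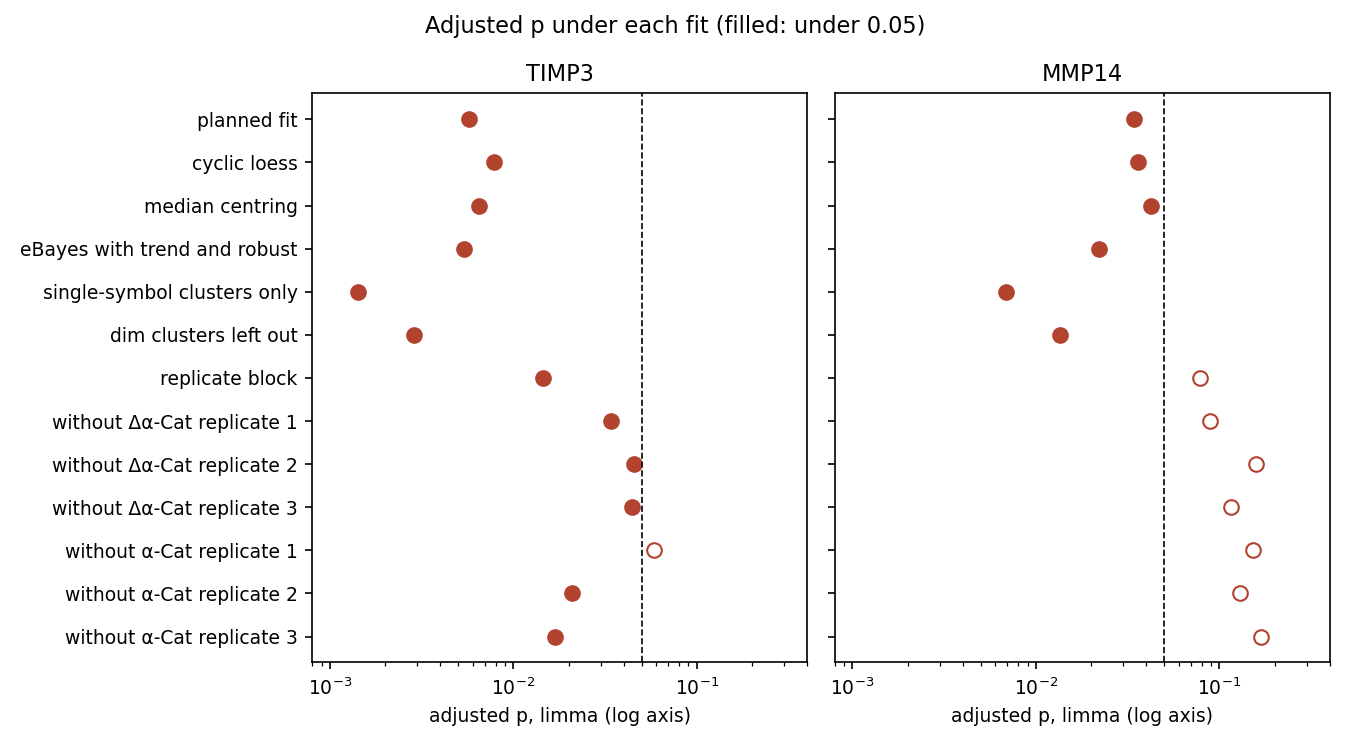
Adjusted p (limma, log axis) for TIMP3 and MMP14 under the planned fit and 12 others, with filled points under 0.05 and a dashed line at 0.05. TIMP3 exceeds the line without α-Cat replicate 1, at 0.0582, and MMP14 does so with the replicate block and in all 6 fits without a single array.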

How the data were processed

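Total RNA from 6 samples was hybridised to Affymetrix arrays. The authors ran Affymetrix Expression Console with RMA to obtain the deposited values, per the submitters' processing notes; versions and annotation release are not given in the sources used here. Their score column holds log2 values by range (1.26 to 14.24), although the deposited table does not state the scale. Of 70513 rows, 4987 lacked the decimal point in 1 or more values (which reached 999) and were left out; no row of these 10 genes was among them. A second table was not used, since its 6 columns match no sample label. Where a gene had several single-symbol clusters, the brightest over the 6 arrays was used. Array medians ranged from 4.02 to 4.07, and the number of arrays limits the precision.

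Groups were compared by lmFit and eBayes of limma 3.58.1 (R 4.3.3) with the group as the only term. The code was also run on simulated data with independent noise in each array. That run cannot judge the choice to leave out the replicate block, since it holds no deviation shared between arrays. Tables were made with Python 3.11.15, numpy 2.4.6 and pandas 2.3.3, and plots with matplotlib 3.10.9. Alternatives were the replicate block, trended robust eBayes, cyclic loess, median centring, single-symbol clusters only, leaving out dim clusters, and leaving out each array. Same-numbered arrays of the 2 groups deviated together (residual correlations 0.219, 0.214 and 0.128), so the numbers may pair the arrays, though the labels do not say what they stand for. The calls reported come from the planned fit without the block, and the blocked p stands beside a call that it ends. The genes and lists were chosen with earlier results of these data known. Named were all 9 genes, CTNNA1, and every called gene of a list or else its 2 smallest p. So were the 3 genes most correlated with TIMP3 and with MMP14 among the names kept for that ranking. Exceptions are stated. Cell type markers fell outside this rule, and those named were picked after their values were seen.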

Additional observations from a re-analysis of the deposited data

How the results depend on the processing

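Of 51 values of the 9 genes under the 6 alternatives that kept all arrays, 50 kept their direction and their side of the threshold. The exception was MMP14 with the replicate block (adjusted p = 0.0784), which left 1 of the 9 genes called. That block changed no other call among the genes and list members named, apart from CYP4F3 and FSCN1. The 3 genes below the dim mark had no value when dim clusters were left out, and A2M dropped out there too. No gene of the set had another single-symbol cluster to try. Leaving out a single array gave 0 to 1 called genes of the 9 and 3 to 5 without overlap. Groups separate more easily with fewer arrays, and the share of all genes without overlap was not computed for those fits. The same fits gave 1 to 2 called list members (3 with all arrays) and 29 to 120 called clusters (224 with all arrays). The small differences changed sign for TIMP1 without Δα-Cat replicate 1 (-0.0741) and without α-Cat replicate 3, with a range of -0.0947 to 0.0778 over the 6 fits. They did so for MMP7 without Δα-Cat replicate 2, with a range of -0.0133 to 0.0905. Testing only single-symbol clusters called 662 clusters and 6 list members, and leaving out dim clusters called 486 clusters; both test fewer features. Dim signal limits what can be said of MMP1, MMP7 and MMP13.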
